A study of Homo sapiens with 6 samples.

Results

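The 7 ZFAND genes are the human genes of the AN1-type zinc finger family, *ZFAND1*, *ZFAND2A*, *ZFAND2B*, *ZFAND3*, *ZFAND4*, *ZFAND5* and *ZFAND6*. They were taken by gene name from a deposited table of 58825 genes, and all 7 passed the filter on low counts along with 18222 other genes. The libraries came from MDA-MB-231, a human line established from a triple-negative breast tumour and grown here for 24 h with the vehicle DMSO or with disulfiram and copper (DSF/Cu) at 0.2 µM. There were 3 repeats of each treatment, for which cells from 3 wells had been combined. Disulfiram is a drug against alcohol dependence whose metabolite binds copper. The labels do not say whether the dose refers to disulfiram or to copper, and no sample here had either agent by itself, so that what each of them does cannot be told apart. The repeats are not described as independent cultures, so the p-values rest on a spread among libraries that may be technical.

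The AN1 finger is a small zinc-binding fold, and the proteins that carry it work where ubiquitinated and misfolded proteins are cleared. Members with a pair of fingers dock on the proteasome, the protease of the ubiquitin system, or on p97, the ATPase that pulls ubiquitinated proteins out of complexes and membranes. Other members join an AN1 finger to an A20 finger, which binds ubiquitin. *ZFAND2A* encodes AIRAP, an arsenite-inducible protein of the proteasome's regulatory particle, and its transcription is known to follow heat shock factor 1 (HSF1) under heat and metal stress. In the authors' deposited table all 7 genes carry the term zinc ion binding, and 2 of them, *ZFAND2A* and *ZFAND2B*, the term proteasome complex.

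Promoter sequences are shown for 3 members that rose, *ZFAND2A*, its closest relative *ZFAND2B*, and *ZFAND5*, because they differ in the elements of the stress factors. *ZFAND3*, which also rose, is not shown. Only 22 bases of its stretch precede the first annotated UTR base, and its window held no match. *ZFAND6*, which was not among those that rose, is not shown either, though its windows held matches given below. The sequences shown are RefSeq's on GRCh38.p14, 5′ to 3′ on the strand of the gene, each ending just before RefSeq's start site or before the first annotated UTR base. These starts are not those of the deposited gene spans. The *ZFAND2A* stretch lies wholly in exons annotated in GENCODE 29, of *ZFAND2A* and of the antisense gene *AC091729*, and its last bases fall within the deposited span of *ZFAND2A*. The *ZFAND2B* stretch lies inside the deposited span of its gene, which begins farther upstream, and it has no match; the sequence before that upstream start was not analysed here. Capitals mark matches to a heat shock element pair (TTCNNGAA or GAANNTTC, bound by HSF1) or to the core of the antioxidant response element (TGACNNNGC, bound by NRF2), searched on both strands.
*ZFAND2A*, chr7:1160197-1160446, minus strand: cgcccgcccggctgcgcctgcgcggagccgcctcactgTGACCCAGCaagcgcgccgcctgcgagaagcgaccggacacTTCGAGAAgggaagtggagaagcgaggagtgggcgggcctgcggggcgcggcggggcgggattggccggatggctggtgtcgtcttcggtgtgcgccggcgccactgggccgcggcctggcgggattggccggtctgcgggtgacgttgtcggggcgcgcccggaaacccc
*ZFAND2B*, chr2:219206532-219206781, plus strand: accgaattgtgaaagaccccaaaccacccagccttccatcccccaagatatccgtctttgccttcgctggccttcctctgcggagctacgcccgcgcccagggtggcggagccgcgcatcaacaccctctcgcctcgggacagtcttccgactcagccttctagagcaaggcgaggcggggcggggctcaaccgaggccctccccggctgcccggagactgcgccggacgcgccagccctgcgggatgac
*ZFAND5*, chr9:72365236-72365458, minus strand: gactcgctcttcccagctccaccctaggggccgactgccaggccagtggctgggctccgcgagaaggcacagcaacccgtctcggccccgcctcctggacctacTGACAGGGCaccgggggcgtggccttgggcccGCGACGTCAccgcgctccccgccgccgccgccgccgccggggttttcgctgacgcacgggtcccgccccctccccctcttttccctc

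The *ZFAND2A* promoter held a heat shock pair, TTCGAGAA, from 171 to 164 bases before RefSeq's start, within annotated exons of *ZFAND2A*. The sequence upstream of this stretch was not analysed here. No other of the 14 promoter windows of the 6 members in the table (250 bases before to 50 after each start) held a pair. A pair thus lay in a window of 1 of 6 members and of 16.2% of the 27305 genes in the table, which are similar shares. The triple form of this element, 3 units in alternating orientation, was in none of the members' windows and in those of 0.608% of all genes. The antioxidant core lay in windows of 3 of 6 members, *ZFAND2A*, *ZFAND5* and *ZFAND6*, and of 16.1% of all genes. The core of the metal response element (TGCACNC or TGCGCNC, bound by the metal sensor MTF1) lay in windows of 2 of 6 members, *ZFAND5* and *ZFAND6*, and of 33.4% of all genes. The amino acid response motif TGATGNAAN, bound by ATF4 with its partners, was in no member's window and in those of 4.45% of all genes. As shares of all 35116 windows these were 13.5% for the heat shock pair, 0.49% for its triple form, 13.3% for the antioxidant core, 29.6% for the metal core and 3.61% for the amino acid motif. The 6 members had 14 windows and the 27305 genes 35116, so the shares per gene are not matched for the number of windows. A match describes letters in these windows and is not evidence of binding.

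Library totals were 55563223 to 70883177 counts. The top 20 genes took 10.7% to 11.2% of a DMSO library and 14.7% to 16.0% of a DSF/Cu library. Over all genes the median log2 change was 0.00227 with TMM scaling (by a trimmed mean of gene ratios) and -0.182 when libraries were scaled by their totals. With the quasi-likelihood test of edgeR, 3365 of 18229 genes rose (18.5%) and 3059 fell (16.8%) at a Benjamini-Hochberg adjusted p under 0.05. Under total counts 2356 rose and 4856 fell. The mesenchymal markers *VIM*, *CD44*, *AXL* and *MSN* were abundant in both groups. Of these *AXL* and *VIM* fell (log2 change -0.76 and -0.27), *MSN* rose (0.57) and *CD44* did not pass. *CDH1* lay near 0, at a mean of 0.0202 CPM (counts scaled to library size) in DMSO and 0.0231 after DSF/Cu, and *ESR1* at 0.105 and 0.277. Of the other markers listed as low in this line, *PGR* had 0.751 and 0.440 CPM, while *ERBB2* (69.4 and 39.7 CPM) and *EPCAM* (7.30 and 4.49 CPM) were not near 0, and both fell. Of the markers of other cell types, *CD3E*, *ADIPOQ* and *DCN* had no count in any library. Summed immune markers reached at most 0.213 CPM and adipocyte markers, of interest because the extraction protocol mentions adipose tissue, 0.121. Endothelial markers summed to 0.288 to 0.567 CPM in DMSO and 0.548 to 1.10 after DSF/Cu, and fibroblast markers, all from *PDGFRB*, to 0 to 0.656 and 1.32 to 1.51. The part of these low levels in the results was not tested.

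DSF/Cu was compared with DMSO to ask which ZFAND transcripts changed with the treatment. 4 of the family's genes rose, *ZFAND2A* by far the most (18.9-fold), then *ZFAND5* (2.58-fold), *ZFAND3* (1.86-fold) and *ZFAND2B* (1.38-fold). *ZFAND1*, *ZFAND4* and *ZFAND6* did not pass the test. In these bulk samples a larger share of responding cells and more RNA per cell cannot be told apart. Of the 7 members 4 passed the test, beside 35.2% of all genes that changed in either direction. The 4 rises are 57.1% of the members, against 18.5% of all genes tested, and 2 of 7 rose at least 2-fold, against 7.42%. The members are mostly well counted, from percentile 46.7 (*ZFAND4*) to 96.3 (*ZFAND3*) of mean log2 CPM. The shares over all genes are not matched for this. The median log2 change of the 7 was 0.59 (0.41 under total-count scaling, and 0.364 to 0.869 over all settings), beside 0.00227 for all genes. This median is the value of *ZFAND6*, which did not pass. No member fell with edgeR (0 at an unadjusted p under 0.05) or with DESeq2. Under total counts *ZFAND4* was lower at an unadjusted p under 0.05 and did not pass after adjustment. The groups did not overlap in CPM for 4 of 7 members, against 51.2% of all genes.

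**Figure D1:**
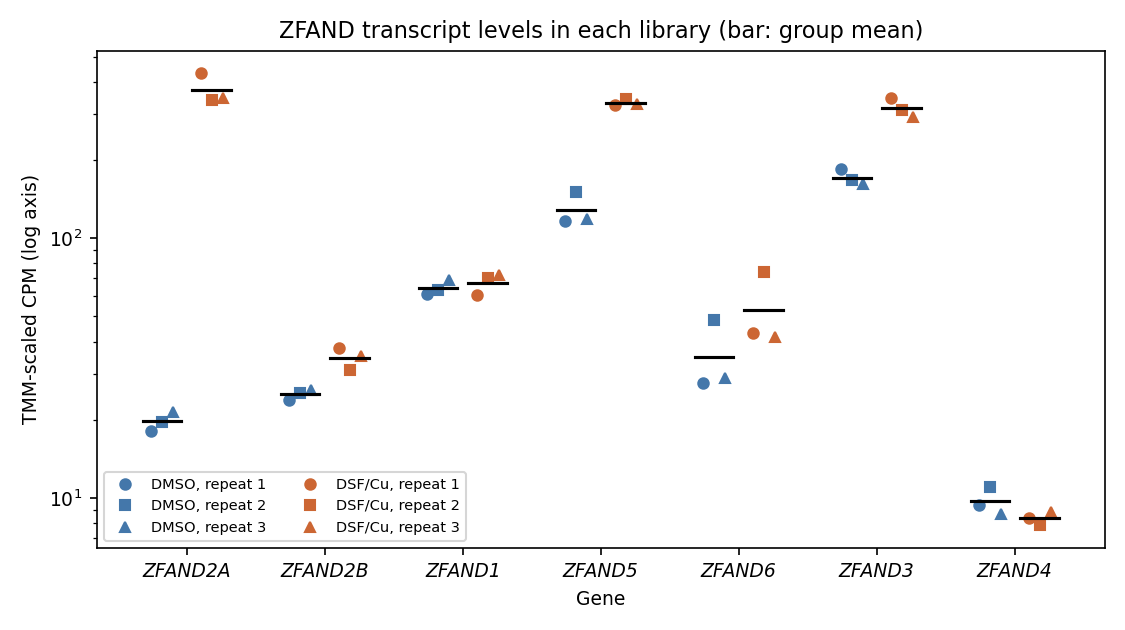
TMM-scaled CPM of each ZFAND gene (log axis) in 3 DMSO libraries (blue) and 3 DSF/Cu libraries (orange), with marker shapes for repeats and bars for group means. The DSF/Cu points of *ZFAND2A* (341 to 431 CPM) lie far above its DMSO points (18.2 to 21.5 CPM), while those of *ZFAND1*, *ZFAND4* and *ZFAND6* overlap.

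*ZFAND2A* (ENSG00000178381, chr7:1152071-1160219, minus strand, in the coordinates of the deposited table, GRCh38) had 1386, 1317 and 1423 counts in the DMSO libraries and 24310, 19683 and 18376 after DSF/Cu. Scaled, these were 18.2, 19.6 and 21.5 CPM in DMSO and 431, 341 and 347.5 after DSF/Cu. Every treated library stood above every control, and the lowest treated value was 15.8 times the highest control. The means were 19.8 ± 1.68 and 373 ± 50.2 CPM (SD, n = 3 per group), a log2 change of 4.24 ± 0.13 (SE, edgeR adjusted p = 1.14e-05). Among all genes tested, 338 had a larger log2 change and 19 a smaller p. Over 13 alternatives in processing the log2 change ran from 3.90 to 4.30 and stayed past the threshold.

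*ZFAND2B* (ENSG00000158552, chr2:219195237-219209651, plus strand) encodes AIRAPL, the relative of AIRAP that sits at the endoplasmic reticulum membrane and binds p97 and ubiquitin chains. It had 23.9, 25.4 and 26.1 CPM in DMSO and 37.7, 31.0 and 35.3 after DSF/Cu. The groups did not overlap, and the gap between the highest control and the lowest treated library was smaller than the spread within the treated group. The log2 change was 0.46 ± 0.09 (edgeR adjusted p = 0.0102). It was 0.28 under total-count scaling (adjusted p = 0.0475) and 0.26 with limma on log2(FPKM + 1) (adjusted p = 0.0394), so its size depended on scaling.

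Within each library the ratio of *ZFAND2A* to *ZFAND2B* counts needs no scaling between libraries. It was 0.760, 0.774 and 0.825 in DMSO and 11.4, 10.99 and 9.83 after DSF/Cu. The *ZFAND2A* count was thus below that of *ZFAND2B* in every control and above it in every treated library. The mean log2 ratio moved from -0.35 ± 0.06 to 3.42 ± 0.11 (SD, n = 3), a difference of 3.77 (two-sided exact permutation p = 0.1, the smallest that 3 against 3 allows).

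*ZFAND1* (ENSG00000104231, chr8:81701334-81732619, minus strand) brings the proteasome and p97 to stress granules, the RNA-protein bodies that form under arsenite, and helps to clear them. It had 60.9, 63.2 and 69.1 CPM in DMSO and 60.4, 70.0 and 71.9 after DSF/Cu. The groups overlapped. The log2 change was 0.07 ± 0.09 (edgeR adjusted p = 0.615), and it was -0.12 under total-count scaling, so it has no settled sign. Its gene overlaps *CHMP4C* on the other strand (9.91 CPM in DMSO and 8.32 after DSF/Cu, not called), and since the strand setting of the counting is not given, reads in the overlap cannot be assigned.

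*ZFAND5* (ENSG00000107372, chr9:72351413-72365235, minus strand) joins an A20 and an AN1 finger, and its protein stimulates the 26S proteasome. It had 8895, 10110 and 7845 counts in DMSO and 18371, 19822 and 17358 after DSF/Cu, or 117, 151 and 119 CPM against 326, 343 and 328. The groups were well apart, and the treated libraries lay closer together than the controls. The log2 change was 1.37 ± 0.11 (edgeR adjusted p = 0.000276), from 129 ± 19.1 to 332 ± 9.52 CPM, and it ran from 1.16 to 1.49 over 13 alternatives.

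*ZFAND6* (ENSG00000086666, chr15:80059568-80138393, plus strand), the closest relative of *ZFAND5*, encodes AWP1, an A20 and AN1 protein that acts in tumour necrosis factor signalling and peroxisomal import. It had 27.7, 48.3 and 29.1 CPM in DMSO and 43.0, 74.2 and 41.5 after DSF/Cu. The library numbered 2 was the highest of each group, and the highest control exceeded 2 of the treated libraries. The log2 change was 0.59 ± 0.30 (edgeR adjusted p = 0.183). Its SD within groups was 0.457 on the log2 CPM scale, against 0.111 to 0.158 for the other 6 members. Without DSF/Cu replicate 2 the change was 0.28 (adjusted p = 0.481), and without DMSO replicate 2 it was 0.89 (adjusted p = 0.0687). Its processed pseudogene *ZFAND6P1* had 2 counts in DSF/Cu replicate 2 and none elsewhere.

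The ratio of *ZFAND5* to *ZFAND6* counts was 4.21, 3.12 and 4.08 in DMSO and 7.57, 4.63 and 7.91 after DSF/Cu. All treated ratios lay above all control ratios, with the lowest of each group in the library numbered 2. The mean log2 ratio moved from 1.92 ± 0.24 to 2.70 ± 0.43 (SD, n = 3), a difference of 0.79 (two-sided exact permutation p = 0.1, the smallest possible).

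**Figure D2:**
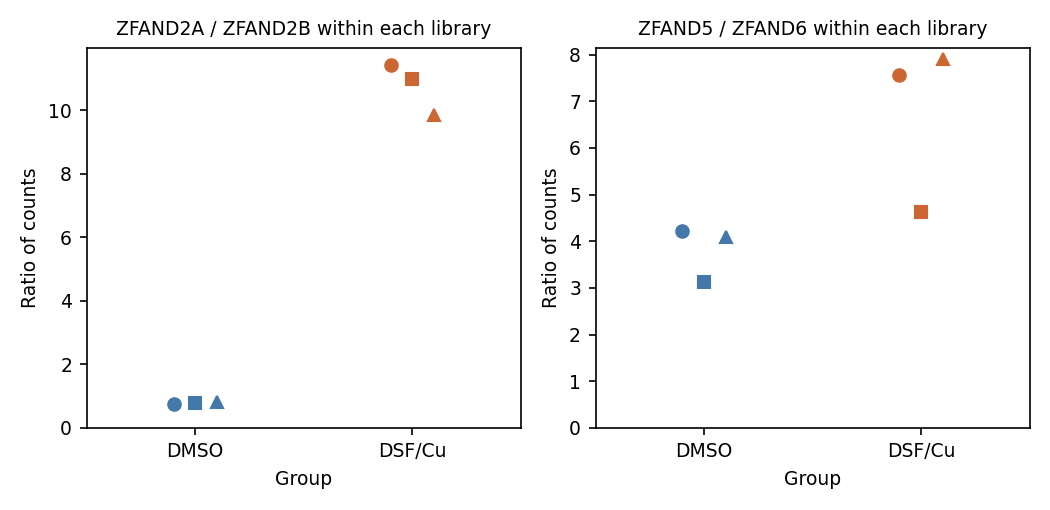
Ratio of counts within each library for *ZFAND2A* over *ZFAND2B* (left) and *ZFAND5* over *ZFAND6* (right), linear axes from 0, DMSO in blue and DSF/Cu in orange with marker shapes for repeats. The left ratio goes from at most 0.825 to at least 9.83, and the right ratio from at most 4.21 to at least 4.63.

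*ZFAND3* (ENSG00000156639, chr6:37819727-38154624, plus strand) also carries an A20 and an AN1 finger, and its role is less settled. It had 185, 167 and 161 CPM in DMSO and 347, 312.5 and 293 after DSF/Cu. The groups did not overlap, with a gap wider than the spread of either. The log2 change was 0.89 ± 0.08 (edgeR adjusted p = 0.000548), and 0.70 under total-count scaling (adjusted p = 0.000877). *ZFAND4* (ENSG00000172671, chr10:45615501-45672762, minus strand), which has a ubiquitin-like domain and an AN1 finger, was the least counted member, at 454 to 740 counts per library. It had 9.42, 11.04 and 8.70 CPM in DMSO and 8.35, 7.86 and 8.87 after DSF/Cu, values that overlap. In FPKM they did not, with 1.36, 1.58 and 1.25 in DMSO and 1.04, 1.01 and 1.15 after DSF/Cu. Its log2 change was -0.22 ± 0.13 (edgeR adjusted p = 0.259), and -0.40 under total-count scaling (adjusted p = 0.0537).

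**Figure D3:**
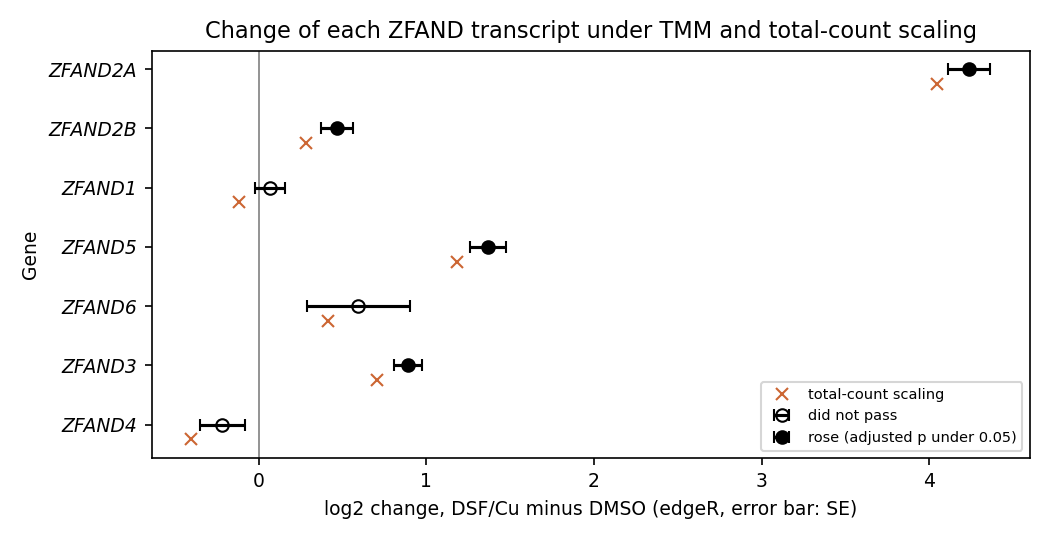
Log2 change of each member, DSF/Cu minus DMSO, by edgeR with TMM scaling (circles, filled where adjusted p is under 0.05, error bars SE) and with total-count scaling (crosses). Crosses lie to the left of circles for all 7 genes, and only *ZFAND1* changes side of 0.

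Per length, on the authors' FPKM scale, the order of the genes changed. In DMSO *ZFAND3* was the highest at 40.5 ± 3.21 FPKM (SD, n = 3), followed by *ZFAND5* (16.4 ± 2.34), *ZFAND1* (13.7 ± 0.876), *ZFAND2A* (7.80 ± 0.644), *ZFAND2B* (6.64 ± 0.262), *ZFAND6* (6.11 ± 1.98) and *ZFAND4* (1.40 ± 0.164). Of these neighbours in the order, *ZFAND2B* and *ZFAND6* overlapped between libraries and the others did not. After DSF/Cu *ZFAND2A* was the highest, at 148, 120.3 and 124 FPKM in the 3 libraries (mean 131 ± 15.2). *ZFAND3* (66.7 ± 4.47), *ZFAND5* (37.7 ± 1.48) and *ZFAND1* (12.8 ± 1.40) followed without overlap. *ZFAND6* (8.21 ± 2.91) overlapped with *ZFAND1* above it and *ZFAND2B* (8.14 ± 0.724) below it, and *ZFAND4* was again the lowest (1.07 ± 0.0710).

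Summed FPKM of the 7 genes were 92.1, 96.1 and 89.7 in DMSO and 283, 259 and 254 after DSF/Cu. *ZFAND2A* made up 8.44 ± 0.894% of that sum in DMSO and 49.2 ± 2.94% after DSF/Cu, and it carried 71.2% of the rise. The other 6 genes together went from 84.8 ± 3.57 to 134.5 ± 4.10 FPKM. *ZFAND3* took 43.8 ± 3.72% of the sum in DMSO and 25.1 ± 0.466% after DSF/Cu, although its own level was higher there.

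**Figure D4:**
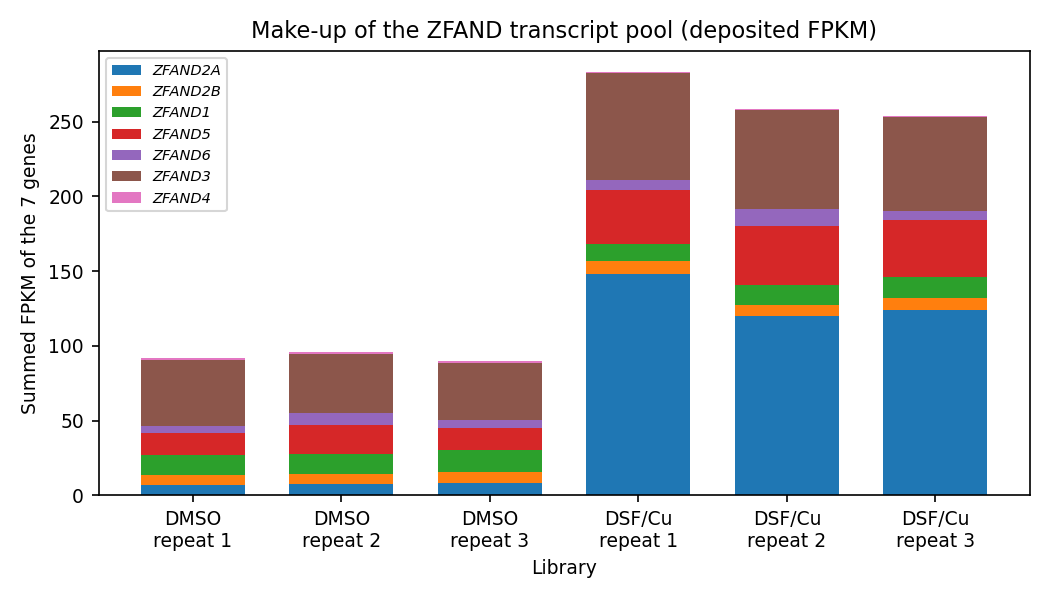
Stacked FPKM of the 7 ZFAND genes in each of the 6 libraries (linear axis from 0), with 1 colour per gene. The summed height goes from 89.7 to 96.1 in DMSO to 254 to 283 after DSF/Cu, and *ZFAND2A* at the base makes most of the difference.

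Genes beside the members were examined for changes shared along the chromosome. Of 15 tested neighbours (the nearest on each side, and any that overlap), 2 rose, 2 fell and 11 did not pass, shares below the 18.5% and 16.8% of all genes. *C7orf50*, 13813 bases from *ZFAND2A*, fell from 118 to 70.6 CPM (log2 change -0.74 ± 0.07, edgeR adjusted p = 0.000539). On the other side of *ZFAND2A*, 154 bases away on the opposite strand, the antisense gene *AC091729* (ENSG00000229043) had 40, 72 and 62 counts in DMSO and 16, 31 and 24 after DSF/Cu, and did not pass (adjusted p = 0.126). The neighbours of *ZFAND2A* thus did not rise with it. Beside *ZFAND2B*, the transporter gene *ABCB6* (120 bases away, opposite strand) had a log2 change of 0.28 ± 0.13 and *RETREG2* of -0.23 ± 0.20, and neither passed. *ANXA1*, 786629 bases from *ZFAND5*, rose by 0.45 ± 0.06, and the sorting nexin gene *SNX16*, beside *ZFAND1*, by 0.72 ± 0.19 (adjusted p = 0.0248, 0.0718 under total-count scaling). *FAH*, which encodes a tyrosine-breakdown enzyme beside *ZFAND6*, fell by 0.29 ± 0.08 (adjusted p = 0.0358). The call of *SNX16* was also lost without DMSO replicate 2 or 3 or DSF/Cu replicate 2 or 3 (adjusted p 0.0603 to 0.0722), and that of *FAH* without any DMSO library or DSF/Cu replicate 2 or 3 (0.0643 to 0.106). Neither neighbour of *ZFAND3* (*MDGA1* and *BTBD9*) or *ZFAND4* (*MARCH8* and *AGAP10P*) passed, nor did *BCL2A1* beside *ZFAND6*, *HSPB1P1* beside *ZFAND5* or *AC132219* (ENSG00000280193) beside *ZFAND1*.

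The partners of the family rose in part. Of 33 proteasome subunits 29 rose and none fell (0 also at an unadjusted p under 0.05 with edgeR, and 0 with DESeq2), with a median log2 change of 0.59. *PSMC4* and *PSMC2*, ATPases of the regulatory particle, rose by 1.20 ± 0.06 and 0.82 ± 0.05, and the scaffold *PSMD2* by 0.72 ± 0.04. Of 20 genes of p97 and its cofactors 14 rose and 3 fell, with a median of 0.53. *VCP*, which encodes p97, went from 635 ± 15.9 to 1057 ± 17.1 CPM (log2 change 0.73 ± 0.04). Its substrate cofactors *UFD1* and *NPLOC4* rose by 1.01 ± 0.07 and 0.38 ± 0.07, and the p97-bound deubiquitinases *VCPIP1* and *YOD1* by 1.28 ± 0.08 and 1.07 ± 0.07. The cofactor genes that fell, named after their values were seen, were *UBXN2A*, *UBXN2B* and *SVIP*, by 0.29 ± 0.09, 0.61 ± 0.09 and 0.56 ± 0.09. *UBXN2A* was near the threshold (edgeR adjusted p = 0.0439), and 2 genes of this list fell in place of 3 with no filter or with any 1 library left out. These counts stand beside shares of 18.5% raised and 16.8% lowered over all genes. Those shares are not matched for how well genes were counted, here or for the lists below. Under total counts 22 of the proteasome genes and 11 of the p97 genes rose, and none and 4 fell.

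Stress granule factors, the setting of *ZFAND1*, gave 5 rises and no fall of 14 with edgeR (1 lower at an unadjusted p under 0.05, and 1 fall with DESeq2), with a median of 0.16. For this short list and for the BAG6 complex below, the shares over all genes tested were 18.5% raised and 16.8% lowered. *FXR1*, an RNA-binding relative of the fragile X protein, rose by 1.01 ± 0.06 and *NUFIP2* by 0.34 ± 0.06. Under total counts 1 rose and 3 fell, with a median of -0.0235, so the list had no direction that held across scalings. Of 4 genes of the BAG6 complex, which holds misdelivered membrane proteins in the cytosol, *UBL4A* fell by 0.51 ± 0.07 and none rose (0 at an unadjusted p under 0.05 with edgeR, and 0 with DESeq2). *BAG6* had a log2 change of -0.06 ± 0.05 and *GET4* of 0.25 ± 0.12.

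A20 or AN1 fingers also occur outside the family. Of 5 such genes 4 were tested, and 3 rose, beside 18.5% of all genes, and none fell (0 at an unadjusted p under 0.05 with edgeR, and 0 with DESeq2). *IGHMBP2*, a helicase gene with an AN1 finger, went from 25.7 ± 0.930 to 52.9 ± 4.76 CPM (log2 change 1.04 ± 0.09, edgeR adjusted p = 0.00034). *TNFAIP3*, which encodes A20 itself, an inhibitor of NF-kB, rose by 0.80 ± 0.10 (adjusted p = 0.00148), and the deubiquitinase *OTUD7B* by 0.60 ± 0.06 (adjusted p = 0.000607). *RABGEF1* had 82.3 ± 20.8 CPM in DMSO and 112 ± 14.2 after DSF/Cu and did not pass (edgeR adjusted p = 0.109), but it was called with DESeq2 and without DMSO replicate 2. *OTUD7A* had no count in any library.

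The targets of HSF1 and the metal response held larger changes. Beside these 2 lists, 18.5% of all genes tested rose and 16.8% fell. Of 20 HSF1 targets 18 rose and none fell (0 at an unadjusted p under 0.05 with edgeR, and 0 with DESeq2), with a median of 1.03 (17 rises and 0.845 under total counts). Only *HSPA1A*, *HSPA1B* and *CRYAB* had a larger log2 change than *ZFAND2A*, by the fitted values. *CRYAB* had no count in DMSO, so it passed the filter through the treated group alone and its fitted change depends on the prior count. A fall could not have been called for it, though its rise is counted in the 18. The HSP70 genes *HSPA1A* and *HSPA1B* are near-identical, so that counts may be split between them. The named genes were *HSPA1B* (6.31 ± 0.12), the HSP70 partner *HSPH1* (2.17 ± 0.06) and the HSP90 co-chaperone *CHORDC1* (2.17 ± 0.07). Of 10 metal response genes 8 were tested, and 8 rose (7 without DMSO replicate 1) and none fell (0 at an unadjusted p under 0.05 with edgeR, and 0 with DESeq2), with a median of 2.94. The zinc exporter *SLC30A1* rose by 2.45 ± 0.05 and the metallothioneins *MT1E* and *MT1X* by 3.44 ± 0.07 and 4.46 ± 0.10, with counts of metallothioneins uncertain since they are close copies. By fitted log2 change *ZFAND2A* lay below 3 of these 8 genes, *MT1X*, *MT1F* and *MT1M*, and above the other 5. *MT1M* had no count in DMSO and 19 to 23 after DSF/Cu, so it passed the filter through the treated group alone, and its fitted change also depends on the prior count. For *MT1M* too a fall could not have been called, though its rise is counted in the 8. *ZFAND5* lay below all 8, and below 7 of the 20 HSF1 targets.

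**Figure D5:**
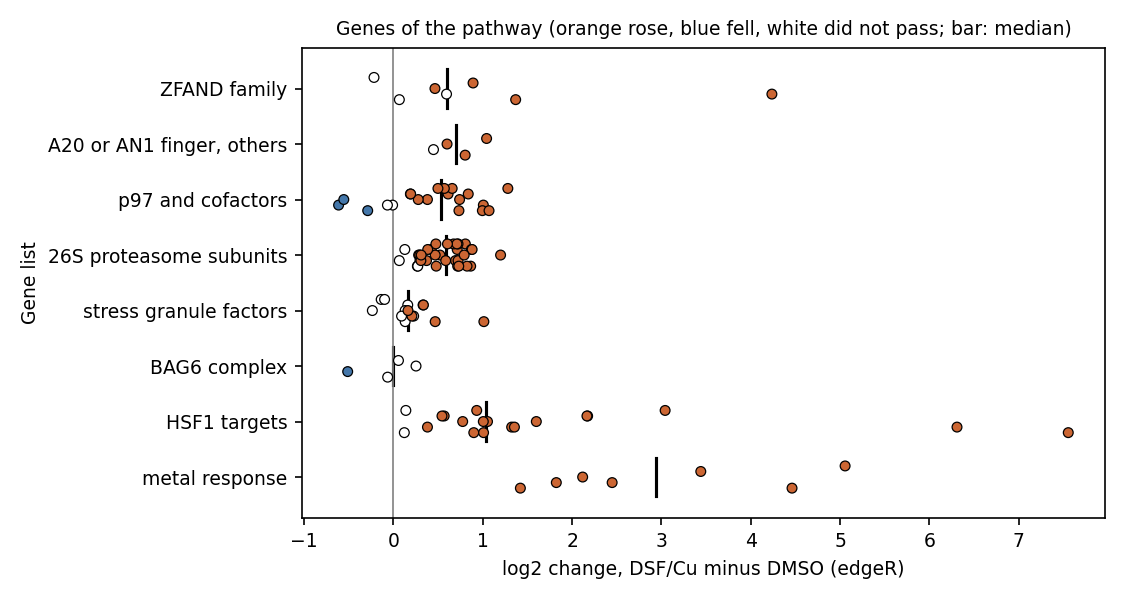
Log2 change, DSF/Cu minus DMSO, of the tested genes of the family and of 7 gene lists (orange rose, blue fell, white did not pass, black bars list medians; genes with no count in DMSO, *CRYAB* and *MT1M*, are left out of the points but not the medians). *ZFAND2A* at 4.24 stands apart from the other members, whose values lie from -0.22 to 1.37.

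The genes whose log2 CPM followed a member most closely over the 6 libraries were found among 12975 genes with a mean count of at least 100. For *ZFAND2A* they were the ubiquitin ligase *UBE4A* and the repressor *ETV3* (Pearson r = 0.99985 for each), then *PCYT1A*, *IER5* and *JUN* (r = 0.99959, 0.99956 and 0.99952), and 488 genes had r over 0.99. Their own changes differed in size, from 0.46 ± 0.05 for *PCYT1A*, a phosphatidylcholine synthesis enzyme, to 2.79 ± 0.07 for the immediate early gene *IER5*. For *ZFAND5* they were *SYAP1*, *OXSR1*, *MAGT1*, *ZNF175* and *SPECC1* (r = 0.99899 to 0.99843), with 159 genes over 0.99. With 2 groups of 3 libraries these values mostly reflect the difference between the groups, which all points share with their library and its depth.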

How the data were processed

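Poly(A) RNA of 6 libraries (3 DMSO, 3 DSF/Cu) was sequenced as paired ends. The table was deposited with whole-number counts and FPKM values per gene, per the file headers; Control columns were taken as DMSO, the only untreated group in the labels. Bowtie 0.12.2, HISAT2 2.0 and StringTie 1.3.0 are named in the submitters' processing notes, without roles; the counter, strand setting and annotation were not given in the sources used here. Those notes name a mouse build, but 58552 gene IDs occur in GENCODE 29 (47556 with the same chromosome, start and end), so coordinates are GRCh38. Promoters came from RefSeq on GRCh38.p14; 6 of the 7 members had an entry.

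Genes were kept by filterByExpr (18229), scaled by TMM and tested with the quasi-likelihood test of edgeR 4.0.16 in R 4.3.3, two-sided, over all genes, with the treatment as the only term. Standard errors are the absolute log2 change over the square root of F. Ratios within libraries were tested by exact permutation. Alternatives were DESeq2 1.42.0, other scalings, no filter, limma 3.58.1 on log2(FPKM + 1) or log2(FPKM + 0.1), a replicate block and leaving out each library. The steps were tested on simulated counts. Libraries of a group differed by a chi-square per degree of freedom of 50.2 to 64.0, so none is a copy.

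All members were named whatever their result; up to 3 genes per list by adjusted p, the 5 genes of the A20 or AN1 list, *VCP*, *UFD1*, *NPLOC4*, the neighbours of members, and the 5 genes most correlated with members changed at least 2-fold were named by rule. The members and lists were chosen with earlier results of these data known. Some genes that the rule names are not reported here. Protein sequences were not used here.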

Additional observations from a re-analysis of the deposited data

How the results depend on the processing

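The rises of *ZFAND2A*, *ZFAND2B*, *ZFAND3* and *ZFAND5* kept their direction and their call under all 13 alternatives, and *ZFAND4* was not called under any. *ZFAND1*, never called, turned sign under total-count scaling (-0.117) and with limma on log2(FPKM + 1) (-0.1003) or log2(FPKM + 0.1) (-0.107). With a replicate block *ZFAND6* was called (0.59, edgeR adjusted p = 0.00886), so that 5 members rose in place of 4. The numbers did not pair the samples over all genes (correlations of deviations of 0.0214, -0.00775 and 0.0441 for same-numbered libraries), and the block otherwise changed no member's call. The ratio differences under the block were 3.77 and 0.79 (exact sign-flip p = 0.25, the smallest possible). Leaving out a library gave ratio differences from 3.72 to 3.83 for *ZFAND2A* to *ZFAND2B* and from 0.65 to 1.04 for *ZFAND5* to *ZFAND6*.

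Stress granule factors that rose numbered 5, but 1 under total counts, 2 with no filter, 1 with either FPKM fit and 2 to 5 with a library left out (2 without DMSO replicate 3, 3 without DMSO replicate 2 or DSF/Cu replicate 2). Those that fell numbered 0, but 3 under total counts and with either FPKM fit, and 1 with DESeq2. With the replicate block 7 metal response genes rose in place of 8, and 2 genes of the p97 list fell in place of 3, and *FAH* was not called (adjusted p = 0.0519). In the BAG6 complex 2 fell under total counts and either FPKM fit in place of 1, and 0 to 1 rose with a library left out (1 without DSF/Cu replicate 3). *AC132219* beside *ZFAND1*, at 1.48 CPM in DMSO, had -0.0117 (-0.285 without DSF/Cu replicate 3) and turned sign with RLE size factors (0.000116) and without DMSO replicate 1 (0.00569), DMSO replicate 3 (0.0152), DSF/Cu replicate 1 (0.0732) or DSF/Cu replicate 2 (0.151). The calls of *SNX16* and *FAH* were lost under 8 and 6 of 13 alternatives. *RETREG2* (-0.51) and *BTBD9* (-0.91) were called without DSF/Cu replicate 1, *MARCH8* (0.32) and *BCL2A1* (0.71) without DSF/Cu replicate 3 and *HSPB1P1* (1.62) without DMSO replicate 1. DESeq2 also called *MARCH8*, *HSPB1P1* and *BCL2A1*. Over all genes 3059 fell, but 4856 under total counts and 4791 or 4727 with limma on FPKM with a pseudocount of 1 or 0.1. With the replicate block 2692 rose and 2451 fell. In these cases the cause was not tested. With 3 libraries per group the ratio tests cannot pass 0.05.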
